A study of Mus musculus with 26 samples.

Results

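Cysltr1, H2-M2, Sema6a, Anxa3 and Fndc3c1 are 5 of the 22180 genes that the arrays of this study could measure by name. They were chosen by their large rises after knockdown of Mettl14 or Mettl3 at 0 h of a time course in mouse embryonic stem cells, so the log2 changes measured in those 0 h arrays describe the choice and carry no test. Of the genes tested, 19.4% were higher at 0 h with Mettl14 depleted and 19.3% with Mettl3 depleted. Among the 14787 genes bright enough to test, they ranked 1, 3, 4, 7 and 8 by rise in the Mettl14 knockdown at 0 h and 2, 3, 4, 5 and 15 in the Mettl3 knockdown. All 5 genes passed the filter on dim genes, whose lowest mean log2 signal over all arrays was 6. Several scramble groups of Cysltr1 and H2-M2 lay under that level, so these genes passed through their knockdown arrays. Each gene was read by 1 probe set, a group of probes on the array that match the same gene.

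Mettl3 and Mettl14 form the core of the enzyme that places N6-methyladenosine, abbreviated m6A, on messenger RNA, with Mettl3 as the catalytic subunit. This mark is known to shorten the life of many transcripts, and in embryonic stem cells it marks many regulators of pluripotency and development. The study depleted each enzyme in J1, a single established mouse line grown in serum with leukaemia inhibitory factor on irradiated embryonic fibroblasts. In the time course, 2 arrays were made for every combination of 3 treatments (a scramble control, depletion of Mettl14, depletion of Mettl3) and 3 times, 0 h, 4 h and 8 h. A repeat set, marked by YW codes in its labels, held 8 further arrays at 0 h: 2 after depletion of Mettl14, 2 after depletion of Mettl3, and 2 for the scramble control belonging to either. The labels describe both lentiviral short hairpin RNA with puromycin selection and transfected small interfering RNA, without assigning arrays to either method. The agent present between 0 h and 8 h is not named in them. They call the paired arrays biological replicates without naming separate cultures, so p-values here cover only the spread between such arrays, which may be technical. In the repeat set, replicate 2 of both scramble controls carries a description of 4 h against 0 h in its other labels, and was grouped as 0 h.

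The targeted genes were low where the labels said so. In the Mettl14 knockdowns, Mettl14 stood at 30.9% of its control level at 0 h, 17.9% at 4 h, 15.9% at 8 h and 39% in the repeat set. A probe set that Mettl3 shares with its neighbour Tox4 stood at 26.9%, 15.9%, 16% and 23.6% in the Mettl3 knockdowns, in the same order. It stood at 67.3% to 73.2% in the Mettl14 knockdowns. Of 20 embryonic stem cell markers 19 passed the filter on dim genes, among them Nanog at 11.89 to 12.86 and Sox2 at 9.46 to 12.54 log2 signal. Esrrb was lower at 7.34 to 8.81 and Dppa3 at 6.64 to 8.6, and Dppa5a (5.17 to 6.14) did not pass. Of 13 leukocyte markers 6 fell under the filter on dim genes, among them Ptprc (4.04 to 5.35) and Lyz2 (4.28 to 5.49), and 7 passed it, among them Cd68 and Kit with medians of 9.29 and 8.87. Of 26 feeder fibroblast markers 22 passed it, among them Vim at a median of 11.74 and Col1a1 at 7.98, and Lum, Dcn, Postn and Lox did not, with medians of 4.29, 5.39, 4.79 and 5.73.

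The 5 genes belong to different families. Cysltr1 encodes a G protein-coupled receptor for cysteinyl leukotrienes, lipid mediators known for contracting smooth muscle and attracting leukocytes. H2-M2 encodes a non-classical class I heavy chain of the mouse major histocompatibility complex. Sema6a encodes a transmembrane semaphorin, a guidance protein that binds plexin receptors. Anxa3 encodes an annexin, which binds phospholipid membranes in the presence of calcium. Fndc3c1 encodes a protein with fibronectin type III domains. By the RefSeq gene table of GRCm38.p6, all 5 are protein coding. Cysltr1 (probe set 17544061) lies at chrX:106576509-106603679 and Fndc3c1 (17544025) at chrX:106420041-106485577. H2-M2 (17344873) lies at chr17:37480851-37483554 and Anxa3 (17439464) at chr5:96793385-96845968.

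The 250 bases before the start of H2-M2 are shown because this gene had the largest rise of all genes tested in 3 of the 4 later comparisons of the time course. They come from RefSeq promoters of GRCm38.p6, lie at chr17:37483555-37483804 directly beyond the gene's span, and are written 5′ to 3′ on the minus strand. Capitals mark matches to the motifs searched on both strands: the GC box GGGCGG, the kappaB motif GGGANTTCC, the TATA box TATAAA and CCAAT, with overlapping matches counted. The kappaB motif was added to the search after the sequence had been seen, so its share below does not measure how unusual the match is.
H2-M2: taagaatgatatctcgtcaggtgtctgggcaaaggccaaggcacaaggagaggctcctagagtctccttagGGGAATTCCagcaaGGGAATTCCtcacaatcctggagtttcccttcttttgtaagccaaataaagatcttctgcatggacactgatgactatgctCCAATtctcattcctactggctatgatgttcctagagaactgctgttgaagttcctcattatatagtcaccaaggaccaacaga
The region held 2 kappaB matches, which begin 179 and 165 bases before the start, and a CCAAT match at 84 bases. Of 32851 promoter regions of the same length, 1.43% held a kappaB match and 33.8% a CCAAT match. It held neither GGGCGG, found in 32.7% of the regions, nor TATAAA, found in 12.4%. Only the letters as given were searched, so looser forms of the TATA box, such as the tatatag near the end, were not counted. It was 44.8% G or C with 1 CpG, against medians of 52.4% and 6 over the regions. A match is a run of letters and no measurement of binding. The table used held no entry for Cysltr1 or Anxa3, and its entry for Fndc3c1 lies inside the gene's span and is not shown.

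Cysltr1, the leukotriene receptor, was dim in the scramble controls of the time course and clearly above them in every knockdown of that course. Its scramble arrays read 4.42 and 4.84 log2 signal at 0 h, 5.59 and 5.47 at 4 h, and 5.17 and 5.47 at 8 h. The Mettl14 knockdown read 8.36 and 7.97 at 0 h, 8.47 and 8.60 at 4 h, and 8.26 and 8.54 at 8 h. The Mettl3 knockdown read 7.56 and 7.91, then 8.19 and 8.13, then 8.20 and 8.17. All 12 knockdown arrays of the course were therefore above 7.5, and all 6 scramble arrays below 5.6. The repeat set was different. There the scramble arrays read 6.35 and 6.09 beside Mettl14 and 5.91 and 6.00 beside Mettl3, while the Mettl14 knockdown read 6.74 and 6.68 and the Mettl3 knockdown 6.39 and 6.59. Each knockdown pair lay above its own scramble pair by a small margin. Over all groups the lowest knockdown array, 6.39, was only just above the highest scramble array, 6.35. In the order of the 13 group means, the 6 knockdown groups of the course came first, then the repeat knockdowns, the repeat scrambles and the course scrambles. Arrays overlapped between 4 of the 12 pairs of groups next to each other in that order, 3 among the course knockdowns and 1 between scramble at 4 h and at 8 h.

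H2-M2, the class I heavy chain gene, stayed far lower in all scramble groups of both sets than in any knockdown group. Its scramble arrays read 5.86 and 5.83 at 0 h, 5.96 and 6.11 at 4 h and 5.56 and 5.28 at 8 h in the course. Those of the repeat set read 6.11 and 6.09 beside Mettl14 and 6.21 and 6.02 beside Mettl3. The whole scramble range was thus 5.28 to 6.21. The Mettl14 knockdown read 9.10 and 9.02, then 9.32 and 9.36, then 9.17 and 9.21 over the course, and 7.63 and 7.62 in the repeat set. The Mettl3 knockdown read 8.23 and 8.27, then 8.64 and 8.60, then 8.71 and 8.48, and 7.21 and 7.23 in the repeat set. At each time and in each set, both Mettl14 arrays were above both Mettl3 arrays.

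Sema6a (probe set 17354299, chr18:47245254-47371200), the semaphorin, read lower at each later time in all treatments. Its scramble arrays read 7.31 and 7.20 at 0 h, 6.82 and 6.87 at 4 h and 6.65 and 6.37 at 8 h. The Mettl14 knockdown read 10.44 on both arrays at 0 h, 9.97 and 10.01 at 4 h and 9.46 and 9.42 at 8 h. The Mettl3 knockdown read 10.42 and 10.27, then 9.97 and 10.09, then 9.45 and 9.58. No array of one time overlapped with another time of the same treatment. In the repeat set the scrambles read 8.26 and 8.43 beside Mettl14 and 8.22 and 8.02 beside Mettl3, the Mettl14 knockdown 9.36 and 9.37, and the Mettl3 knockdown 9.58 and 9.76. For this gene the repeat Mettl3 knockdown, at a mean of 9.67, stood above both course knockdowns at 8 h, at 9.51 and 9.44.

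Anxa3, the annexin, changed little over time. Its scramble arrays read 8.45 and 8.35 at 0 h, 8.71 and 8.78 at 4 h and 8.66 and 8.77 at 8 h. The 12 knockdown arrays of the course read 11.15 to 11.48, with the Mettl14 arrays at 11.22 and 11.15, 11.46 and 11.30, and 11.38 and 11.48, and the Mettl3 arrays at 11.30 and 11.24, 11.42 and 11.28, and 11.47 and 11.45. The knockdowns overlapped each other throughout the 4 h and 8 h arrays. The repeat scrambles read 9.38 and 9.39 beside Mettl14 and 9.09 and 9.10 beside Mettl3. The Mettl14 knockdown read 10.85 and 10.89 there, and the Mettl3 knockdown 10.36 and 10.50.

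Fndc3c1, the fibronectin domain gene, had the lowest standard errors of the 5. Its scramble arrays read 7.12 and 7.20 at 0 h, 7.84 on both arrays at 4 h, and 7.63 and 7.66 at 8 h. The Mettl14 knockdown read 9.94 and 10.02, then 10.32 and 10.33, then 10.13 and 10.17. The Mettl3 knockdown read 9.99 on the lower array at 0 h, level with the other, then 10.43 and 10.36, then 10.46 and 10.36. All 3 treatments were thus lowest at 0 h. In the repeat set the scrambles read 8.63 and 8.67 beside Mettl14 and 8.02 and 8.07 beside Mettl3, apart from each other. The Mettl14 knockdown read 9.66 and 9.61, and the Mettl3 knockdown 9.46 and 9.43.

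For each of the 5 genes, all 16 knockdown arrays were above all 10 scramble arrays. Of the genes tested, 3.47% had this arrangement. The 0 h arrays that chose the genes are among those counted, so the arrangement describes them only. Arrays overlapped between 3 of 12 neighbouring groups for H2-M2, 3 for Sema6a, 5 for Anxa3 and 2 for Fndc3c1.

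**Figure D1:**
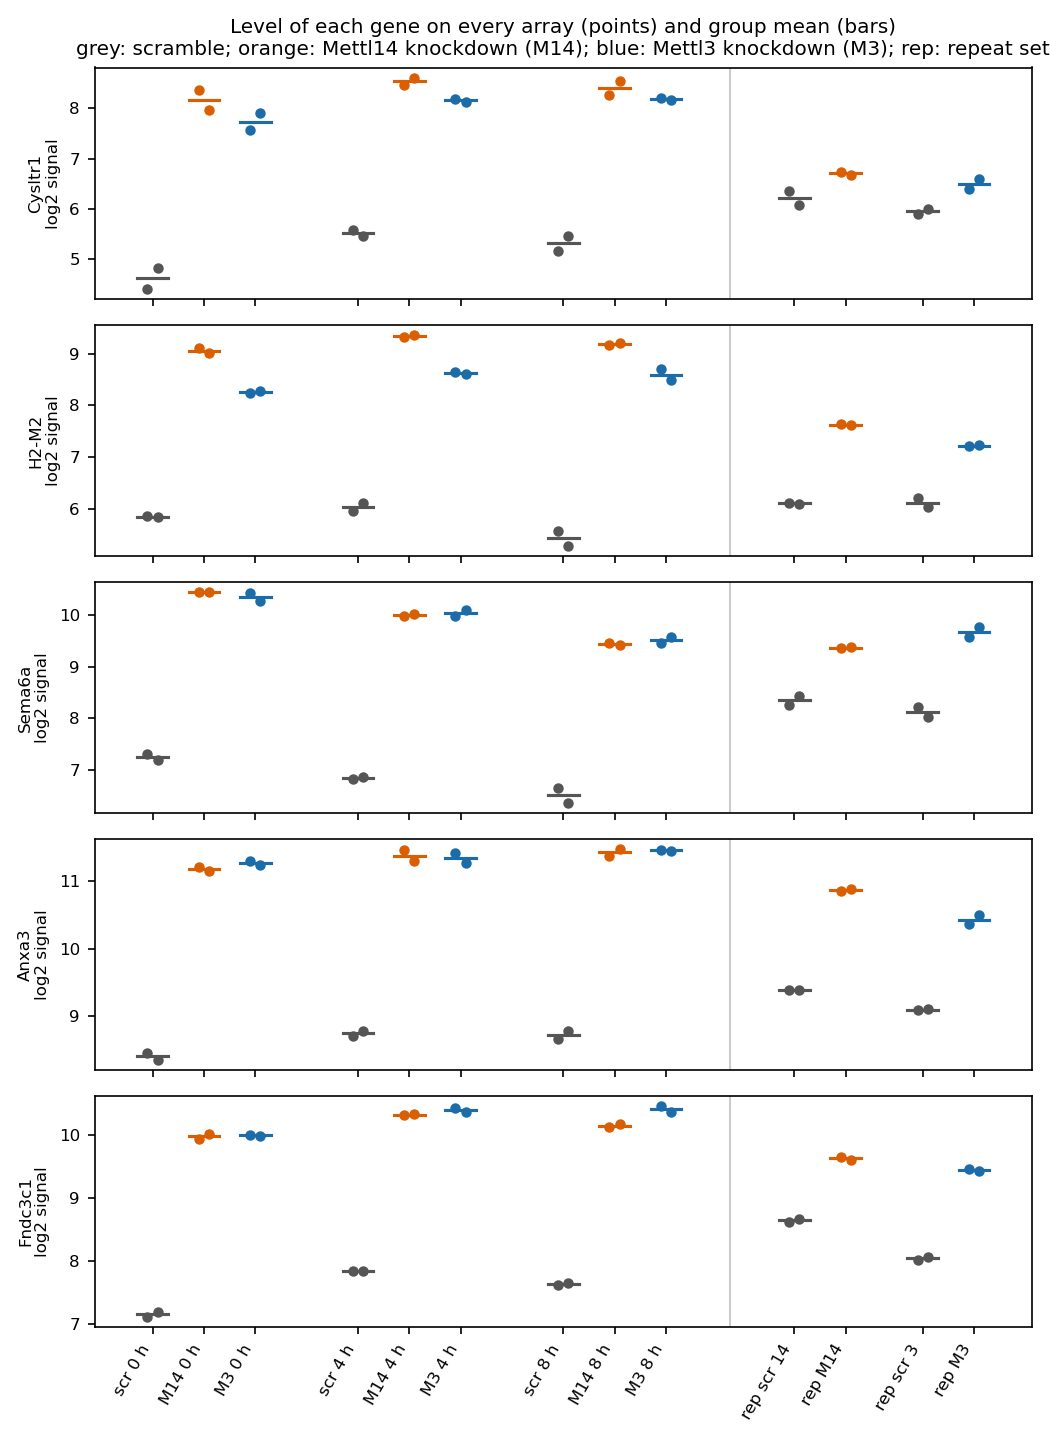
Log2 signal (y axis) of Cysltr1, H2-M2, Sema6a, Anxa3 and Fndc3c1 on each of the 26 arrays (points), with the mean of each group of 2 arrays (bars); the groups on the x axis are scramble (scr, grey), Mettl14 knockdown (M14, orange) and Mettl3 knockdown (M3, blue), with the repeat set (rep) right of the line. The knockdown arrays stand above the scramble arrays in every panel, and the gap is narrower in the repeat set, where Cysltr1 runs from 5.91 to 6.74 over scramble and knockdown arrays.

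The repeat set asked whether the rises returned in arrays that played no part in the choice, though they counted in the filter on dim genes. Cysltr1 and H2-M2 passed that filter through knockdown arrays, so for them the counts in the repeat set are not independent of it. All 5 genes rose there in both knockdowns, with no overlap between knockdown and scramble arrays (34.9% of the genes tested had that arrangement with Mettl14 and 34.4% with Mettl3). In the Mettl14 knockdown 5 of 5 passed, where 19.4% of the genes tested were higher, and in the Mettl3 knockdown 5 of 5, where 17.9% were. H2-M2 rose by 1.52 ± 0.06 log2 (± gives the standard error from limma) after Mettl14 knockdown (adjusted p = 2.3e-05) and by 1.11 ± 0.06 after Mettl3 knockdown (adjusted p = 7.53e-05). Anxa3 rose by 1.48 ± 0.06 (adjusted p = 2.11e-05) and 1.34 ± 0.06 (adjusted p = 4e-05). In linear terms the annexin gene rose 2.79-fold and the class I gene 2.88-fold after Mettl14 knockdown.

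Sema6a rose by 1.03 ± 0.09 (adjusted p = 0.000308) in the Mettl14 knockdown and 1.55 ± 0.09 (adjusted p = 8.17e-05) in the Mettl3 knockdown of the repeat set. Fndc3c1 rose by 0.98 ± 0.04 (adjusted p = 2.7e-05) and 1.40 ± 0.04 (adjusted p = 2.5e-05). Cysltr1, first or second at 0 h of the course, had the smallest rises of the 5, 0.49 ± 0.10 (adjusted p = 0.0087) and 0.53 ± 0.10 (adjusted p = 0.00628). Cysltr1 ranked 876 by rise in the Mettl14 knockdown and 637 in the Mettl3 knockdown. The best ranks of the other genes were 29 for H2-M2 with Mettl14 and 9 for Sema6a with Mettl3. At least 2-fold rises were seen for 3 of the 5 with Mettl14, where 1.01% of the genes rose that far, and for 4 of the 5 with Mettl3, where 0.744% did. Fndc3c1 missed the 2-fold mark with Mettl14 at 1.97-fold.

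Set beside the repeat set, the 0 h effects of the time course were larger for all 5 genes. They are given without a test because they chose the genes. A choice by large 0 h effects favours larger values there than in other arrays. Over all genes tested, 335 passed with at least 2-fold rises at 0 h with Mettl14 and 323 with Mettl3. In the repeat set 149 and 110 did. In the Mettl14 knockdown of the course, Cysltr1 stood 3.54 ± 0.17 above scramble, H2-M2 3.22 ± 0.09, Sema6a 3.19 ± 0.09, Fndc3c1 2.82 ± 0.05 and Anxa3 2.79 ± 0.07. In the Mettl3 knockdown the values were 3.10 for Cysltr1 and Sema6a, 2.87 for Anxa3, 2.84 for Fndc3c1 and 2.40 for H2-M2. Course minus repeat was 3.05 log2 for Cysltr1 with Mettl14 and 2.57 with Mettl3. For the other genes it lay between 1.30 and 2.16.

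The scramble levels also differed between the sets, by amounts that did not follow the same gene order. The course scramble arrays at 0 h were part of the choice, which favours genes that read low there. The differences are therefore a description only. In the repeat scramble for Mettl14, Cysltr1 was 1.59 log2 above the course scramble at 0 h, Fndc3c1 1.49, Sema6a 1.09, Anxa3 0.98 and H2-M2 0.26. In the repeat scramble for Mettl3 the values were 1.32, 0.89, 0.87, 0.69 and 0.27 in the same gene order. The median over all genes tested was -0.15 in both cases. Both ends narrowed for Cysltr1, since its repeat knockdown means of 6.71 and 6.49 were also below the course knockdown means of 8.17 and 7.73 at 0 h. For H2-M2 the scramble level was nearly the same, and the difference lay in the knockdown arrays, with repeat means of 7.63 and 7.22 against 9.06 and 8.25. Whether all 26 arrays were normalised together is not stated, so set, method of knockdown, processing and the choice of genes cannot be told apart.

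**Figure D2:**
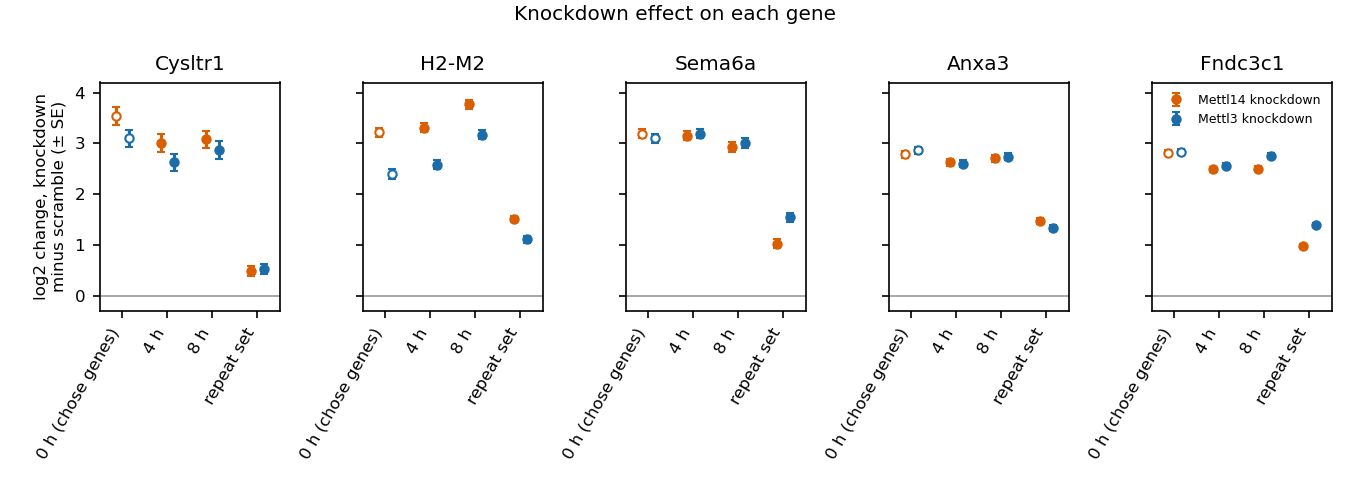
Log2 change of each gene, knockdown minus scramble (y axis, points with standard errors from limma, 2 arrays against 2), for the Mettl14 (orange) and Mettl3 (blue) knockdowns at 0 h, 4 h and 8 h of the time course and in the repeat set (x axis); open points are the 0 h effects that chose the genes. All 5 genes stand above 2 in the time course and below 1.6 in the repeat set, with Cysltr1 near 0.5 there.

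The later arrays of the time course, not used in the choice but from the same experiment, were compared with their own scramble controls. They counted in the filter on dim genes, which Cysltr1 and H2-M2 passed through their knockdown arrays. For these genes the counts below are therefore not independent of the filter. At 4 h 5 of 5 genes were higher in the Mettl14 knockdown, where 20% of the genes tested were, and 5 of 5 in the Mettl3 knockdown, where 19.4% were. At 8 h it was again 5 of 5 in both, where 23.8% of the genes were higher in each. Both knockdowns of a time share the scramble arrays. H2-M2 had the largest rise of all genes at 4 h in the Mettl14 knockdown, 3.31 ± 0.09 or 9.9-fold (adjusted p = 2.45e-10). It was also first at 8 h, with 3.77 ± 0.09 or 13.6-fold after Mettl14 knockdown (adjusted p = 1.51e-10) and 3.17 ± 0.09 after Mettl3 knockdown (adjusted p = 2.7e-10). Its scramble arrays at 8 h, 5.56 and 5.28, lie at the dim end of these arrays, under the lowest mean of a gene tested, so these folds and ranks rest on a dim control level. Sema6a was first at 4 h in the Mettl3 knockdown with 3.19 ± 0.09 (adjusted p = 2.65e-10).

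Sema6a stood at 3.15 ± 0.09 in the Mettl14 knockdown at 4 h, and at 2.93 and 3.01 in the Mettl14 and Mettl3 knockdowns at 8 h. Cysltr1, with the widest error, rose by 3.01 ± 0.17 and 2.63 ± 0.17 at 4 h and by 3.08 and 2.87 at 8 h (adjusted p at most 1.86e-07 by limma). Anxa3 rose by 2.63 and 2.60 ± 0.07 at 4 h and by 2.71 and 2.74 at 8 h. Fndc3c1 rose by 2.49 and 2.56 ± 0.05 at 4 h and by 2.50 and 2.76 at 8 h. The Anxa3 changes spanned 2.60 to 2.74 over these comparisons, the narrowest range of the 5 genes.

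H2-M2 was the one gene of the 5 higher in the Mettl14 than in the Mettl3 knockdown at both later times. The direct difference was 0.72 ± 0.09 at 4 h (adjusted p = 0.000706), where 3.23% of the genes were higher with Mettl14, and 0.59 ± 0.09 at 8 h (adjusted p = 0.00219), where 3.89% were. Fndc3c1 was lower in the Mettl14 knockdown at 8 h by -0.26 ± 0.05 (adjusted p = 0.0116), as 4.35% of the genes were. That call was lost without replicate 1 of the Mettl14 knockdown (-0.24, adjusted p = 0.0803) or of the Mettl3 knockdown at 8 h (-0.21, adjusted p = 0.116). Sema6a did not pass, with 95% intervals for the difference of -0.23 to 0.15 at 4 h and -0.26 to 0.12 at 8 h. For Anxa3 the intervals were -0.13 to 0.19 at 4 h and -0.19 to 0.13 at 8 h. Cysltr1 had 0.37 ± 0.17 at 4 h (adjusted p = 0.245) and 0.21 ± 0.17 at 8 h (adjusted p = 0.522).

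In the repeat set the same direct comparison, added after the data had been seen, found 3 of the 5 higher with Mettl14, where 8.45% of the genes were. Anxa3 differed by 0.44 ± 0.06 (adjusted p = 0.00412), H2-M2 by 0.41 ± 0.06 (adjusted p = 0.00888) and Fndc3c1 by 0.19 ± 0.04 (adjusted p = 0.0346). The H2-M2 call was lost without replicate 1 of the Mettl14 knockdown (adjusted p = 0.0515). The Fndc3c1 call was lost without any 1 of the 8 arrays (adjusted p 0.0539 to 0.148). Sema6a was at -0.30 ± 0.09 (adjusted p = 0.0808) and Cysltr1 at 0.22 ± 0.10 (adjusted p = 0.187). H2-M2 was thus the one of the 5 genes whose difference passed at 4 h, at 8 h and in the repeat set with the main settings. Some alternatives lost further calls of the 5 genes in this repeat comparison. Others gained calls here and in the difference of effects that follows. The effect of Mettl14 minus the effect of Mettl3, each against its own scramble, passed for 1 of the 5, Fndc3c1 at -0.42 ± 0.06 (adjusted p = 0.0225), where 1.5% of the genes had a lower effect with Mettl14. That call was lost without any 1 of the 8 arrays (adjusted p 0.064 to 0.0866).

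The repeat scramble controls themselves differed at Fndc3c1. It was lower in the scramble for Mettl3 than in the scramble for Mettl14 by -0.60 ± 0.04 (adjusted p = 0.00987), rank 14776 of 14787 genes by rise, where 0.413% of the genes were lower. The call was lost without any 1 of the 4 scramble arrays (adjusted p 0.0578 to 0.17), and with no filter on dim genes. Anxa3 was at -0.29 ± 0.06 (adjusted p = 0.0795), Cysltr1 at -0.27 ± 0.10 (adjusted p = 0.256), Sema6a at -0.23 ± 0.09 (adjusted p = 0.304) and H2-M2 at 0.01 ± 0.06 (adjusted p = 0.972). With the mean of both scramble groups as control, an alternative added after this was seen, Fndc3c1 rose by 1.28 with Mettl14 and 1.10 with Mettl3, the opposite order from that with its own scrambles. Sema6a kept its order at 1.14 and 1.44, and H2-M2 its values of 1.52 and 1.11.

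Between 4 h and 8 h, arrays outside the choice, the genes parted. H2-M2 fell in scramble by 0.61 ± 0.09 on the log2 scale (adjusted p = 0.000693 by limma), Sema6a by 0.34 ± 0.09 (adjusted p = 0.0218) and Fndc3c1 by 0.19 ± 0.05 (adjusted p = 0.0347). These were 3 of 5 where 12.8% of the genes fell, while 0 of 5 rose where 2.07% did. The H2-M2 scramble arrays, 5.96 and 6.11 at 4 h and 5.56 and 5.28 at 8 h, lie near or under the filter level of 6. The H2-M2 fall thus rests on dim readings. The Fndc3c1 call in scramble was lost without any 1 of the 4 arrays compared, at values of -0.20 to -0.17 (adjusted p 0.107 to 0.148). It was also lost under quantile normalisation, where the value was -0.09 (adjusted p = 0.28). The Sema6a call in scramble was lost without replicate 1 at 4 h (-0.36), replicate 2 at 4 h (-0.31) or replicate 2 at 8 h (-0.20).

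Sema6a fell by 0.55 ± 0.09 in the Mettl14 knockdown (adjusted p = 0.00221), 1 of 5 where 6.8% of the genes fell and 1.19% rose, and by 0.52 ± 0.09 in the Mettl3 knockdown (adjusted p = 0.00322), 1 of 5 where 6.44% fell and 1.4% rose. H2-M2 was at -0.15 ± 0.09 in the Mettl14 knockdown (adjusted p = 0.37) and -0.02 ± 0.09 in the Mettl3 knockdown (adjusted p = 0.922). The difference between the knockdown and the scramble change of H2-M2 was 0.46 ± 0.13 with Mettl14 (adjusted p = 0.258) and 0.59 ± 0.13 with Mettl3 (adjusted p = 0.195), so a different course was not shown. That test called 0 genes (0%) for Mettl14 and 6 (0.0406%) for Mettl3 by limma, with 1222 and 1182 genes at an unadjusted p under 0.05. With moderated variances fitted with a trend and robustly, it called 61 genes higher and 7 lower for Mettl14. Without replicate 1 of scramble at 8 h, the H2-M2 difference with Mettl3 was 0.73 (adjusted p = 0.0317), and the calls over all genes rose to 61 higher and 8 lower for Mettl14 and 83 higher for Mettl3. Anxa3 and Cysltr1 passed in no treatment, with changes between -0.21 and 0.11.

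The changes since 0 h use the arrays of the choice and are described only. From 0 h to 4 h, Cysltr1 moved by 0.90 log2 in scramble, 0.37 with Mettl14 and 0.43 with Mettl3. Fndc3c1 moved by 0.68, 0.35 and 0.40, Anxa3 by 0.35, 0.19 and 0.08, and H2-M2 by 0.19, 0.28 and 0.37. Sema6a alone went down, by -0.41, -0.45 and -0.32. From 0 h to 8 h Sema6a reached -0.74 in scramble and -0.83 with Mettl3, and went furthest down with Mettl14, while H2-M2 was at -0.42 in scramble and 0.13 and 0.35 in the knockdowns. The medians over all genes tested were 0.10 to 0.13 at 4 h and 0.11 to 0.15 at 8 h, so small positive values lie near the general shift of these arrays.

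The relatives of each gene were read from lists chosen with earlier results of these data known. They are given as counts beside the shares of all genes. Those higher are given above, and those lower were 16.9% and 17.4% in the repeat set with Mettl14 and Mettl3, 19.5% and 18.4% at 4 h, and 19.8% and 19% at 8 h. In the leukotriene list, 12 genes were bright enough to test. In the repeat set 0 were higher and 2 lower with Mettl14, and 0 higher and 3 lower with Mettl3. Abcc1, a leukotriene exporter, was at 0.16 (adjusted p = 0.0535) and 0.15 (adjusted p = 0.0639) there. Cysltr2, the other cysteinyl leukotriene receptor, fell by 0.37 ± 0.08 (adjusted p = 0.00993) and by 0.83 ± 0.08 (adjusted p = 0.000389). At 4 h and 8 h its 4 values lay between -0.33 and 0.27 and did not pass. Pla2g4a, the phospholipase that releases arachidonic acid, rose by 0.97 and 1.04 log2 at 4 h and by 0.94 and 1.07 at 8 h with Mettl14 and Mettl3 depleted, but was at -0.22 (adjusted p = 0.0793) and 0.02 (adjusted p = 0.863) in the repeat set. At 8 h 5 of 12 were higher and 1 lower with Mettl14, and 3 higher and 2 lower with Mettl3 (Lta4h at -0.20 and Alox5ap at -0.30). At 4 h 2 were higher and 1 lower with each.

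Of 19 class I presentation genes tested, 10 rose and 1 fell in the repeat set with Mettl14, and 6 rose and 1 fell with Mettl3. Their median change was 0.27 and 0.14, against 0.00 for all genes. H2-K1, a classical class I heavy chain, rose by 1.11 ± 0.05 and 0.86 ± 0.05, and B2m, the light chain of class I molecules, by 0.62 and 0.52. Tapbp, which loads peptides, rose by 1.04 and 0.56. In the course 7 rose at 4 h in each knockdown and 8 at 8 h, with H2-K1 at 0.90 to 1.03 and B2m at 0.86 to 1.04. H2-M5, another heavy chain gene of the H2-M region, fell in 5 of the 6 comparisons, most at 4 h with Mettl3 by 1.02 ± 0.09 (adjusted p = 3.88e-06). At 8 h with Mettl14 it was at -0.11 (adjusted p = 0.395). H2-M3 passed in the repeat Mettl14 comparison only, at 0.26. Erap1, which trims peptides for class I molecules, rose by 1.09 and 0.47 in the repeat set with Mettl14 and Mettl3, by 1.64 and 1.28 at 4 h, and by 1.71 and 1.57 at 8 h.

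Of 26 semaphorins and receptors tested, 11 rose and 2 fell in the repeat set with Mettl14 and 13 rose and 1 fell with Mettl3. The later arrays of the course gave 11 to 13 higher and 0 or 1 lower. Sema3c, a secreted semaphorin, rose by 2.45 ± 0.08 and 2.62 ± 0.08 at 4 h with Mettl14 and Mettl3, and by 0.68 and 0.79 in the repeat set. Sema4c rose by 0.97 and 0.98 in the repeat set, and Sema7a by 1.56 ± 0.05 with Mettl3. Plxna2 and Plxna4, the plexins known to bind Sema6a, did not pass in any of the 6 comparisons, with values from -0.23 to 0.29.

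Among 13 annexins and S100 partners tested, 9 rose and 1 fell with Mettl14 in the repeat set, and 8 rose and 3 fell with Mettl3. The medians, 0.65 and 0.38, were the highest of the family lists. Anxa5 rose by 1.35 and 0.99, Anxa2 by 1.13 and 0.76, and Anxa1 by 1.37 and 0.50. Anxa8 fell in the repeat set by 0.46 ± 0.08 with Mettl14 and by 0.63 ± 0.08 with Mettl3, but rose in the course at 4 h with Mettl3 (0.60) and at 8 h with both (0.37 and 0.45). In the later course arrays 10 or 11 of the 13 were higher, with Anxa2 at 1.67 to 1.79 and Anxa5 at 1.47 to 1.81. S100a10, the partner of Anxa2, rose by 0.69 and 0.46 in the repeat set.

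The fibronectin domain family held 6 testable genes, of which 2 rose with Mettl14 and 3 with Mettl3 in the repeat set, and 1 fell in each. Fndc3b, the close relative of Fndc3c1, rose by 0.77 ± 0.05 and 0.61 ± 0.05 there, but in the course it passed with Mettl3 only, at 0.24 and 0.26. Fndc3a passed in no comparison, between -0.11 and 0.13. Fndc4 rose in the later course arrays by 0.73 to 1.08 and Fndc10 fell in the repeat set by 0.45 and 0.71.

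Some markers of other cell types also differed between knockdown and scramble arrays. Fewer cells of a type and less RNA per cell cannot be told apart in such bulk samples. Of 26 feeder fibroblast markers on the array 22 were tested, and 9 rose and 0 fell in each knockdown of the repeat set. In the later course arrays 8 to 12 rose and 1 or 2 fell. Their mean log2 level was 6.97 in scramble at 0 h of the course, 7.18 to 7.24 at 4 h and 7.27 to 7.38 at 8 h, against 7.35 to 7.46 in the knockdowns at 0 h and 7.57 to 7.72 later. It was 7.35 to 7.39 in the repeat scramble for Mettl14 and 7.19 in that for Mettl3, against 7.46 to 7.55 in the repeat knockdowns. Tagln and Fstl1, which other cells also express, were among the 4 largest rises in each of the 6 comparisons. Mmp2 rose by 0.26 and 0.55 in the repeat set and by 1.46 to 1.68 in the later course arrays. Of the collagens, Col1a1 rose in the later course arrays by 0.35 to 0.59 and Col5a1 by 0.67 to 0.81, while Col3a1 and Col1a2 passed in no comparison. Thy1 rose in none and fell with Mettl14 by 0.50 at 4 h and 0.34 at 8 h. Pdgfra, dim at a median of 6.16, was lower at 8 h, at -0.81 with Mettl14 and -0.85 with Mettl3. Pdgfrb was at -0.20 at 4 h with Mettl3, which also passed. The part of these cells in the rises of the 5 genes was not tested.

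Of 15 trophoblast markers, 12 rose and 1 fell with Mettl14 in the repeat set and 9 rose and 1 fell with Mettl3, among them the keratins Krt18 at 1.54 and 1.17 and Krt8 at 1.36 and 1.12. Of 19 embryonic stem cell markers, 16 and 15 fell in the same comparisons, among them Nr0b1 at -1.30 and -0.82 and Tcl1 at -1.17 and -1.07. Of 7 leukocyte markers, 1 rose and 2 fell in each. In the later course arrays 8 to 10 of the 15 trophoblast markers rose and 1 fell. With Mettl3 depleted, Tfap2c was at -0.95 at 4 h and -0.74 at 8 h, while Eomes was at 0.43 and 0.86. Cdx2, Gata3, Hand1 and Plac1 passed at neither of these times with Mettl3. Trophoblast levels averaged 7.14 to 7.26 log2 in the course scrambles and 7.64 to 7.87 in the course knockdowns, and 7.37 to 7.47 in the repeat scrambles against 7.80 to 8.10 in the repeat knockdowns. Their part was not tested.

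Genes beside the 5 were read from the 6 named genes on each side. Fndc3c1 and Cysltr1 are next to each other, 90.9 kb apart, with 0 RefSeq genes between. Past Cysltr1, Lpar4, a lysophosphatidic acid receptor 317 kb away, rose in the 6 comparisons outside 0 h, by 0.24 ± 0.04 and 0.28 ± 0.04 in the repeat set and by 0.87 to 1.20 in the course. Like Cysltr1, it had its smaller values in the repeat set. Itm2a, 794 kb away, rose with Mettl14 in the repeat set by 0.64 ± 0.07 and by 0.65 to 0.77 in the later course arrays, and did not pass with Mettl3 in the repeat set at 0.21 (adjusted p = 0.0665). On the other side Pgk1, a glycolytic enzyme, did not pass anywhere, with values of 0.00 to 0.15, and neither did Atp7a. Taf9b on that side fell with Mettl14 in the repeat set by 0.37 ± 0.06 (adjusted p = 0.00422) and passed in none of the other 5 comparisons.

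Beside Anxa3, 4 of 6 testable neighbours were higher in each of the 6 comparisons, where 17.9% to 23.8% of all genes were. Of the other 2, Mrpl1 fell in the 4 later course comparisons by 0.25 to 0.60, and Cxcl13 passed in none. Fras1, an extracellular matrix gene 8.65 kb away, rose by 0.99 ± 0.04 and 0.98 ± 0.04 in the repeat set and by 0.69 to 1.07 in the course. Antxr2, 1040 kb away, rose by 0.98 ± 0.12 and 1.28 ± 0.12, and by 1.33 to 1.58. Bmp2k and Cnot6l rose by 0.22 to 0.84. Beside Sema6a 0 of 7 testable neighbours were higher in any comparison and 2 or 3 were lower. Of all genes, 17.9% to 23.8% were higher and 16.9% to 19.8% lower in these comparisons. Dtwd2, Dmxl1 and Hsd17b4 among the 7 lay 2320 to 2760 kb away, and the others 157 to 504 kb. The 12 named neighbours of H2-M2 were all olfactory receptor genes or pseudogenes, and 0 were tested. Olfr106-ps, Olfr759-ps1 and Olfr760-ps1 were not on the array, and the others were too dim.

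The genes with levels most like those of the 5 were found by Pearson correlation over the 13 group means among 13669 named genes. The points share arrays and the large step between the knockdown and scramble groups, which chose the 5 genes. Cysltr1 was closest to Nefl, a neurofilament gene, at 0.993, which also had small rises in the repeat set, 0.43 and 0.44, against 2.66 and 2.16 at 4 h. H2-M2 was closest to Igsf9 at 0.986 and Sema6a to Clca4a at 0.986. Anxa3 and Fndc3c1 both stood closest to Cald1, an actin-binding protein gene, at 0.994 and 0.993, and stood next to each other at 0.991. Between the 5 genes the correlation ran from 0.874 for Cysltr1 with Sema6a to 0.991.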

How the data were processed

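The deposited values are log2 signals per probe set on Affymetrix Mouse Gene 2.0 ST arrays, made by the authors with RMA, a background correction, quantile normalisation and summary of probes, in oligo (named without version in the submitters' processing notes). It makes the distributions of arrays alike, so a general shift of RNA content would not show. Poly(A) RNA was labelled with biotin per the labels' protocols. Of 41345 probe sets, 23521 had 1 gene symbol, which gave 22180 genes (the brightest probe set for 1082 genes with several). The dimmest 7393 genes, a fraction of 0.333, were left out and 14787 tested. The comparisons used limma version 3.58.1 under R 4.3.3 (functions lmFit and eBayes, two-sided, Benjamini-Hochberg adjustment over 14787 genes, threshold 0.05). Spread was estimated once over the 18 arrays of the time course (9 residual degrees of freedom) and once over the 8 of the repeat set (4). Differences between sets used all 26 arrays (13). The number of arrays limits the precision. The code was tested on simulated data. The members and lists were chosen with earlier results of these data known. Genes named besides the 5 were the up to 4 smallest adjusted p of a list in a comparison. Also named were the 3 genes of highest correlation, the 6 named neighbours on each side and the targets. Further relatives and markers, such as Anxa1 and Fndc3a, Plxna2 and Plxna4, H2-M3, Erap1, Col3a1, Pdgfra, Pdgfrb, Alox5ap and Eomes, were chosen after their values were seen. Replicate numbers showed no steady pairing of arrays. Deviations from the group means correlated between groups at -0.436 to 0.335 in the time course (median 0.031). In the repeat set they correlated at -0.047 to 0.042 (median -0.004). Some course groups thus shared part of their array deviations, in either direction. Alternatives were other filters on dim genes, the mean of probe sets, a trend with robust variances, 1 fit over 26 arrays, quantile normalisation, centring on long-lived genes, the replicate block and each array left out.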

Additional observations from a re-analysis of the deposited data

Results flagged for a closer look

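The effect of Mettl14 knockdown on Fndc3c1 in the repeat set, each knockdown against its own scramble, was smaller than that of Mettl3 knockdown by -0.42 ± 0.06 log2 (adjusted p = 0.0225 by limma), which drew attention because the same contrast differed between the knockdowns. Of the genes tested, 1.5% had such a lower effect with Mettl14, and 1 of the 5 genes did. The rises were 0.98 with Mettl14 and 1.40 with Mettl3, with all arrays of a knockdown above those of its scramble. The knockdown levels differed in the other direction, by 0.19, and the scramble levels by -0.60. The call was lost without any 1 of the 8 arrays, with values of -0.44 to -0.39 and adjusted p of 0.064 to 0.0866, and with no filter on dim genes (adjusted p = 0.0898). For H2-M2 the same difference was 0.42 ± 0.09 (adjusted p = 0.0681) and for Sema6a -0.52 ± 0.13 (adjusted p = 0.0925).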

How the results depend on the processing

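In the 6 knockdown comparisons outside 0 h of the time course, the 30 results of the 5 genes kept their direction and their side of the threshold under all 690 alternative values run. The widest adjusted p were 0.0495 and 0.0372 for Cysltr1 in the repeat set, where its rise ranged over 0.36 to 0.62 with Mettl14 and 0.40 to 0.63 with Mettl3. With the replicate block the Cysltr1 rise with Mettl14 was 0.49 (adjusted p = 0.018), and the block changed no call of the 5 genes except the repeat difference of Fndc3c1 between knockdowns (0.19, adjusted p = 0.0571). For the changes from 4 h to 8 h, Fndc3c1 in scramble lost its call with no filter on dim genes (-0.19) and under quantile normalisation (-0.09), and ranged over -0.20 to -0.17 with 1 array left out; Sema6a in scramble ranged over -0.47 to -0.20. Fndc3c1 in the Mettl14 knockdown gained a call with more dim genes left out (-0.18), in 1 fit over 26 arrays (-0.18) and centred on long-lived genes (-0.21). The causes were not tested. Counts over all genes moved more. Centring raised the genes higher at 8 h with Mettl3 from 3519 to 5345 and cut those lower from 2815 to 1313 (it moved the median of all genes to 0.13), raised the share of higher calls at 8 h with Mettl14 from 54.6% to 69.8% and at 4 h with Mettl3 from 51.2% to 62.1%, and left 74 higher and 3013 lower from 4 h to 8 h in scramble against 306 and 1895. From 4 h to 8 h, higher counts in scramble were 187 with no filter, 509 with trend and robust variances, 541 in 1 fit and 791 under quantile normalisation. With Mettl14, 176 became 78, 420, 406 and 370 under these, 320 with more genes left out and 67 with centring. With Mettl3, 207 became 75, 520, 520 and 389, and 427 with more genes left out. With 1 array left out, these counts ranged over 71 to 320 higher and 1076 to 1957 lower in scramble, 29 to 185 and 380 to 1140 with Mettl14, 34 to 223 and 422 to 1025 with Mettl3, and the lower count of the repeat Mettl14 knockdown over 1646 to 2433. Quantile normalisation moved the share of higher calls from 4 h to 8 h from 13.9% to 34.1% in scramble, 14.9% to 28.4% with Mettl14 and 17.9% to 29.3% with Mettl3. Between the knockdowns, 477 higher and 426 lower with Mettl14 at 4 h became 307 and 245 with no filter and 749 and 694 in 1 fit, 575 and 643 at 8 h became 358 and 1077 with centring, and 1250 and 893 in the repeat set became 630 and 413 with no filter and 1894 and 1444 with trend and robust variances. The difference of effects in the repeat set, 227 higher and 222 lower, gave 36 and 42 with no filter, 805 and 582 with trend and robust variances and 132 and 141 with the replicate block. Between the repeat scrambles, 38 and 61 became 0 and 1, 381 and 396, and 16 and 20 under the same settings. Levels near 5 log2, such as Cysltr1 in scramble, lie near the dim end of these arrays.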
